A study of Rattus norvegicus with 10 samples.

Results

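Inhibition of miR-145-5p was examined in primary rat oligodendrocyte progenitor cells (OPCs) by RNA sequencing of 4 of the 10 libraries of the series, chosen by their labels. The comparison set 2 libraries of OPCs transfected with a miR-145 inhibitor (anti-miR-145) against 2 libraries of OPCs transfected with a scrambled one (anti-miR-ctl). Cells of all 4 libraries came from cortices of Sprague-Dawley rat pups of postnatal days 1 to 3, were shaken off mixed glial cultures, left to settle briefly on plates so that other, more adhesive cells would attach, and kept in medium with the mitogens PDGFAA and FGF2. Inhibitor or control was delivered at 30 nM with the reagent INTERFERin, and RNA was taken 24 h later. OPCs without transfection were not analysed here, so every direction is relative to the scrambled inhibitor. The other 6 libraries, from oligodendrocytes (OLs) 5 days after transfection, served only to set levels on a common scale and as a single alternative fit. The 2 libraries of a group carry the labels N1 and N2. The study's reporting summary calls each N a biological replicate and, for primary cells, names the culture of a single mouse. It gives no such definition for rat cultures, so the number of pups behind each library is not stated. No source used here says whether N1 of both groups came from the same animals.

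OPCs are the dividing, PDGF-dependent cells that give rise to myelinating OLs, and they leave the cell cycle as they differentiate. A microRNA is loaded into Argonaute and pairs through its seed with sites in messenger RNAs, which it destabilizes or keeps from translation, so an inhibitor is designed to raise the direct targets of the microRNA. Type I interferons and double-stranded RNA induce a shared set of antiviral genes through the JAK-STAT pathway and IRF factors, while NF-kappaB drives chemokines, cytokines and acute phase genes. Cultures obtained by shaking can still hold microglia and astrocytes after such a step, and microglia make many of these immune transcripts.

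The mature strands of rat miR-145 are shown because the inhibitor is directed at the first of them. They are RefSeq sequences on assembly GRCr8, written 5′ to 3′ with the seed, bases 2 to 8, in capitals. Both lie on the minus strand of chromosome 18, miR-145-5p at chr18:57370033-57370055 and miR-145-3p at chr18:57369997-57370017.
rno-miR-145-5p: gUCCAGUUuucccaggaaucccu
rno-miR-145-3p: gGAUUCCUggaaauacuguuc
Of 724 mature rat microRNAs in the same table, 1 carries the seed of miR-145-5p, which is miR-145-5p itself. Mature microRNA levels were not analysed here.

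Total gene counts were 39429127 and 42684206 for anti-miR-145 and 40012510 and 34119803 for anti-miR-ctl. Levels are given as CPM, counts scaled to library size with TMM factors over all libraries, and pairs of values name replicate 1 before replicate 2. Across genes, log2(CPM + 1) correlated at 0.995 between the anti-miR-145 libraries and at 0.997 between the anti-miR-ctl libraries, and at 0.975 to 0.977 between libraries of different groups. Replicates of both groups differed by more than counting error, with chi-square values per degree of freedom of 30.9 for anti-miR-145 and 11.4 for anti-miR-ctl. Defining genes of OPCs were present in all libraries, and Pdgfra, the PDGF receptor of OPCs, stood at 1228 and 1524 CPM after anti-miR-145 and at 915 and 908 CPM after anti-miR-ctl. Markers of the other cell types that such cultures can hold are given with the results.

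Expression differed widely between OPCs given the inhibitor and OPCs given the scrambled control. Of 15496 genes tested with edgeR's quasi-likelihood test, 1874 rose and 2474 fell at a Benjamini-Hochberg adjusted p under 0.05, which is 12.1% higher, 16% lower and 28.1% in either direction. These shares are the background against which the gene groups below are read. Groups did not overlap for 67.8% of all genes tested, and for every gene that was called. Decreases were the larger changes. Among called genes the median log2 fold change was 0.52 for those that rose and -0.94 for those that fell, and 368 genes fell by at least 2 log2 units while 116 rose by as much. Over all genes tested the median was 0.00, a centre that TMM sets. Of the genes carrying a symbol on a single gene ID, 164 belonged to 6 lists of interferon, antigen presentation, sensor, cytokine and inflammatory genes, and 129 of them fell and 3 rose. Outside those lists 1735 of 13489 genes rose and 2139 fell, 223 of them by at least 2 log2 units. Leaving out anti-miR-145 replicate 2 raised the number of called genes to 7130, and leaving out anti-miR-ctl replicate 1 or replicate 2 lowered it to 2424 or 2530. A fit of all 5 groups of the series called 2657.

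**Figure D1:**
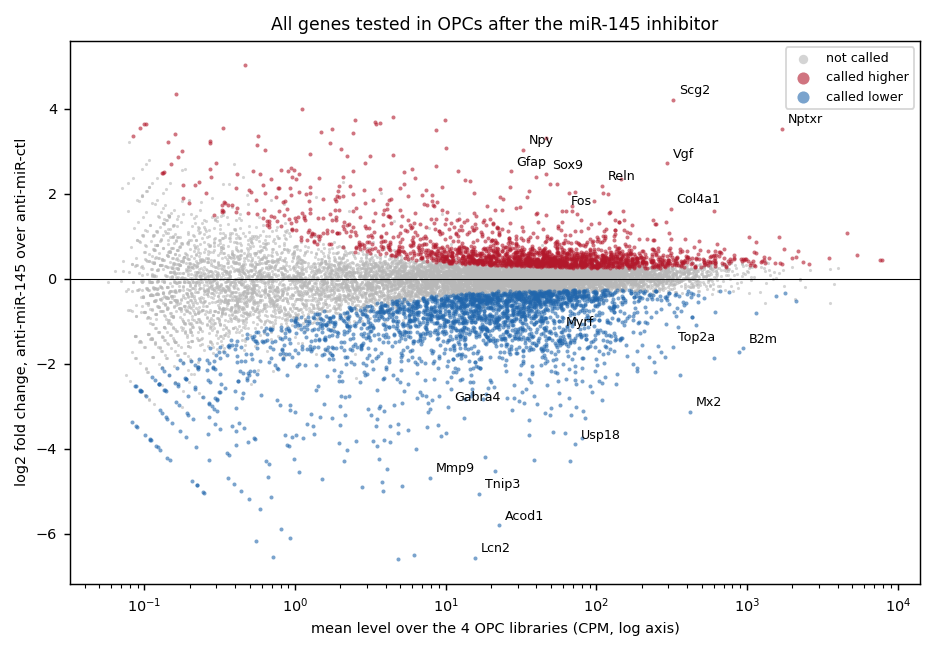
Log2 fold change of anti-miR-145 over anti-miR-ctl (vertical axis) against the mean level over the 4 OPC libraries in CPM (horizontal log axis), 1 point per gene tested, coloured by call and without the 39 genes at 0 counts in both libraries of a group. Scg2 and Nptxr stand at 4.21 and 3.52, and Lcn2 and Acod1 lie at -6.56 and -5.79.

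Genes of the regulated secretory pathway were among the largest increases of genes with at least 10 CPM on average. Scg2, encoding the granin secretogranin II that is stored in dense-core vesicles, was at 665 and 562 CPM after anti-miR-145 and at 31.2 and 35.8 CPM after anti-miR-ctl. It rose by 4.21 log2 units (standard error 0.14, adjusted p = 1.6e-05). Nptxr, the neuronal pentraxin receptor, rose from 258 and 295 CPM to 3210.5 and 3089 CPM, a log2 fold change of 3.52. The neuropeptide precursor genes Vgf and Npy rose by 2.72 and 3.04 log2 units, and the granin gene Chgb by 2.16. Gal, which encodes galanin, rose from 0.608 and 0.411 CPM to 7.17 and 5.65 CPM. Each of these genes had both anti-miR-145 libraries above both controls, by several-fold.

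Of 24 granin, pentraxin and neuropeptide processing genes tested, 13 rose and 4 fell, against 12.1% and 16% of all genes, with a median log2 fold change of 0.64. Pam and Cpe, which amidate peptides and trim their ends, rose by 0.69 and 0.46. The prohormone convertase genes moved the other way, Pcsk1 falling from 2.06 and 2.36 CPM to 0.149 and 0.250 CPM (log2 fold change -3.42) and Pcsk2 by a log2 fold change of -1.07. Tac1 and Scg3 were the other members that fell, at -1.74 and -0.31. Chga, the founding granin, was at 3.33 and 3.16 CPM against 2.81 and 3.40 CPM and did not pass the test. Leaving out either anti-miR-ctl library reduced the members that fell from 4 to 2, and the members that rose numbered 9 to 12 with any library left out.

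Promoters of Scg2 and Vgf are shown because both hold the cyclic AMP response element TGACGTCA, to which CREB binds. Each window runs from 250 bases before to 50 bases after the RefSeq start on GRCr8, with the element in capitals, on the minus strand at chr9:88256817-88257116 for Scg2 and at chr12:25276971-25277270 for Vgf.
Scg2: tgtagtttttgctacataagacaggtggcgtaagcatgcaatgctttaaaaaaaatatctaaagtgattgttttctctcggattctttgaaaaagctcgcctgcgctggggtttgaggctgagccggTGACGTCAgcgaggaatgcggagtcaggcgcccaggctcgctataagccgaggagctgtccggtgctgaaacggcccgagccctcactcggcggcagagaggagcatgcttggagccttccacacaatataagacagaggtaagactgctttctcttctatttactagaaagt
Vgf: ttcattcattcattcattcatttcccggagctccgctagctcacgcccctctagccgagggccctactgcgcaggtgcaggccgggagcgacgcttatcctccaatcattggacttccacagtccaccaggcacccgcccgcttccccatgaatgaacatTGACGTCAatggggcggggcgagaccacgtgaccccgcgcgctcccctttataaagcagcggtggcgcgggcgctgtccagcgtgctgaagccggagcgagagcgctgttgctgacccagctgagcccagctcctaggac
Searched on both strands, these letters were found in 2 of the 15 promoters matched for this group (13.3%), in 4 of 20 promoters of immediate early genes (20%) and in 3.06% of the 9895 promoters matched to genes tested. In both promoters shown, no other motif searched overlaps the element. A match describes the letters of the window and is not evidence of binding.

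The remaining largest increases were of varied function. The transcription factor Sox9, which marks glial precursors and astrocytes, rose from 14.9 and 13.9 CPM to 75.3 and 82.3 CPM (log2 fold change 2.46, standard error 0.09, adjusted p = 2.7e-05). Gfap, the astrocyte intermediate filament, rose from 8.23 and 7.81 CPM to 40.7 and 51.1 CPM. For both genes the 2 controls lay close together and well below the inhibited cells. Signalling molecules in this set were Vav3, an exchange factor for small GTPases (2.39), Ptpn5, the STEP tyrosine phosphatase (2.02), Cnr1, the CB1 cannabinoid receptor (2.07), Ramp1, a subunit of the CGRP receptor (2.33), and Kcnj5, an inwardly rectifying potassium channel (2.53). Secreted and matrix proteins were Reln (2.19), Timp1 (2.23) and the metalloprotease Adamts9 (2.23). The rest were Cfap52 (3.30), the organic anion transporter Slco2b1 (3.08), Plppr4 (2.04), Sh2d5 (2.03) and March4 (2.01), all as log2 fold changes.

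**Figure D2:**
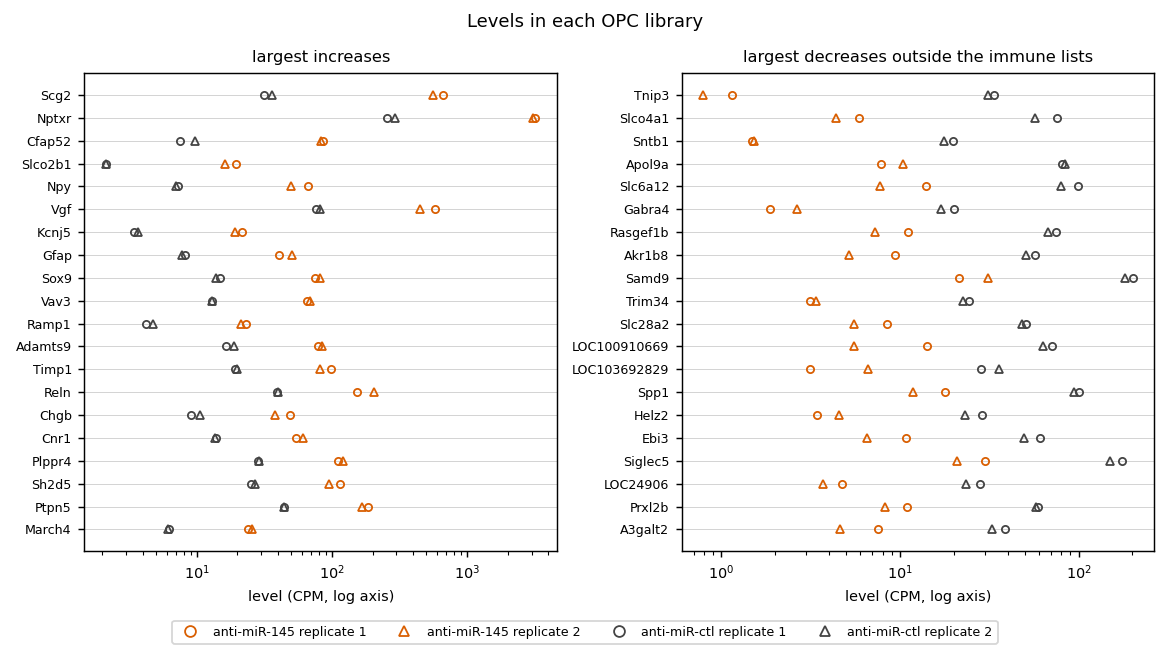
Levels in CPM (log axis) in each of the 4 OPC libraries for the 20 largest increases (left) and the 20 largest decreases outside the immune lists (right) among called genes of at least 10 CPM on average. Orange marks anti-miR-145, grey anti-miR-ctl, circles replicate 1 and triangles replicate 2. In every line the 2 colours do not overlap, and Nptxr reaches the highest level of the left panel at 3210.5 CPM.

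Extracellular matrix and adhesion genes split into both directions. Of 46 tested, 13 rose (28.3%) and 16 fell (34.8%), against 12.1% and 16% of all genes. The median log2 fold change was 0.06. The basement membrane collagen Col4a1 rose from 144 and 162 CPM to 469 and 480 CPM (log2 fold change 1.65, standard error 0.09, adjusted p = 7.9e-05), with its partner Col4a2 at 1.51 and the fibrillar collagen Col11a1 at 1.99. The laminin receptor subunits Itga6, Itga3 and Itga7 rose by 1.70, 2.36 and 1.12. The proteoglycan-cleaving enzymes Adamts4 and Adamts1 rose by 1.16 and 0.93. The fibronectin receptor subunit Itga5 fell by 2.10 on the log2 scale, and the gelatinase Mmp9 went from 15.6 and 14.7 CPM to 0.571 and 0.590 CPM (log2 fold change -4.68). Has2, which synthesizes hyaluronan, changed by -3.90 and osteopontin (Spp1), abundant in activated microglia, by -2.69. The count of members that fell was 9 without anti-miR-ctl replicate 1, and the fit of all 5 groups called 8 higher and 9 lower.

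Immediate early genes and outputs of growth factor signalling also moved in both directions. Fos, the AP-1 subunit, rose from 31.2 and 31.3 CPM to 95.3 and 92.2 CPM (log2 fold change 1.60, adjusted p = 6.4e-05), and Jund, Myc and Jun rose by 1.02, 0.66 and 0.56. Egr1, Nr4a1, Arc and Klf4, immediate early genes of the zinc finger, orphan receptor and synaptic classes, had log2 fold changes of -0.82, -0.77, -1.54 and -1.73. In all, 6 of 31 immediate early genes rose and 5 fell, or 19.4% and 16.1% against 12.1% and 16% of all genes. Among 26 feedback and output genes of the ERK pathway 7 rose (26.9%) and 4 fell (15.4%), the latter near the share of all genes. Spry1, Spred3 and Etv1 rose by 0.77, 0.99 and 0.68 log2 units, while the phosphatase genes Dusp2 and Dusp1 had log2 fold changes of -2.64 and -1.06, and Ptgs2, which makes prostaglandins, of -2.22. Of 32 growth factor receptors and ligands 11 rose (34.4%) and 3 fell (9.38%). Igf1 rose from 3.91 and 3.15 CPM to 10.9 and 12.3 CPM, Fgf2 by 1.67 log2 units, Fgfr1 by 0.57 and Kitlg by 0.96, whereas the receptors Erbb4 and Fgfr3 had log2 fold changes of -0.82 and -1.28. Without anti-miR-145 replicate 2 the ERK genes that rose numbered 11, the growth factor genes that fell numbered 9, and the immediate early genes that fell numbered 8.

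Genes of the cell cycle fell together. Of 46 tested, 38 fell and 4 rose, with a median log2 fold change of -1.05, against 16% and 12.1% of all genes. Mki67, the proliferation antigen Ki-67, was at 107 and 150 CPM after anti-miR-145 and at 376 and 398 CPM after anti-miR-ctl (log2 fold change -1.58, standard error 0.15, adjusted p = 0.000441). Both inhibited libraries lay far below the controls and differed from each other more than the controls did. Top2a, the DNA topoisomerase of dividing cells, went from 469 and 502 CPM to 141 and 175 CPM. Mitotic genes had log2 fold changes of -1.50 for Aurkb, -1.49 for Cdk1, -1.42 for Plk1, -1.55 for Ccna2 and -1.44 for Cdc20. Replication genes showed smaller values, with Mcm6 at -1.10, Pcna at -1.03, Mcm2 at -0.65 and Mcm7 at -0.46.

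The members that rose were inhibitors of the cycle and a G1 kinase. Cdkn2b and Cdkn2a, which encode inhibitors of CDK4 and CDK6, rose by 0.91 and 0.85 log2 units, Cdkn1c by 0.48, and Cdk4 itself by 0.42. Cdkn2c, of the same inhibitor family, had a value of -1.07. The G1 cyclin Ccnd1 stood at 3862 and 3785 CPM against 3276 and 3360 CPM and did not pass the test (adjusted p = 0.0895), nor did Cdkn1a, Cdkn1b and Ccne1. The number of members that fell was between 35 and 39 with any library left out and 34 in the fit of all 5 groups. The number that rose was 2 without either anti-miR-ctl library. Fewer dividing cells and less of these RNAs per cell cannot be told apart in bulk samples, and the same holds for each gene group of a cell type.

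The Mki67 promoter is shown because it holds matches to the cell cycle homology region TTTGAA, in capitals, in the window from 250 bases before to 50 after the start on the minus strand of GRCr8, chr1:199952544-199952843.
Mki67: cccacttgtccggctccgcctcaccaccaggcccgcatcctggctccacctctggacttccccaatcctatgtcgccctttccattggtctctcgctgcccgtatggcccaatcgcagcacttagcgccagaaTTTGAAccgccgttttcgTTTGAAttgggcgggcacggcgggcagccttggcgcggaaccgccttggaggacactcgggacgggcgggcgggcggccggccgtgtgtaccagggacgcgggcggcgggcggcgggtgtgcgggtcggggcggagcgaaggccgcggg
The second of the 2 matches shares bases with a CCAAT box on the other strand. On either strand TTTGAA was found in 10 of 33 promoters of cell cycle genes (30.3%) and in 11.5% of all matched promoters, the E2F letters TTTCCCGC in 3 of 33 (9.09%) and in 1.97%, and CCAAT in 60.6% and in 37%. TTTGAA was also in 4 of 11 promoters of OPC identity genes (36.4%), 4 of 10 of microglia markers (40%) and 15 of 54 of mitochondrial ribosomal protein genes (27.8%).

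Several Notch and BMP response genes fell. Among 36 genes of Notch, Wnt and BMP signalling 15 fell (41.7%) and 4 rose (11.1%), against 16% and 12.1% of all genes. The share that rose was thus near that of all genes, and the median log2 fold change was -0.30. Id1, a target of BMP signalling that inhibits basic helix-loop-helix factors, went from 28.3 and 25.8 CPM to 7.10 and 7.74 CPM (log2 fold change -1.85, standard error 0.11, adjusted p = 8.3e-05). Id4, Id3 and Id2 had values of -0.76, -0.57 and -0.41. The Notch receptor Notch2, its ligand Jag1 and its targets Nrarp, Hes5 and Hes1 had values of -1.25, -0.94, -0.76, -1.76 and -1.09. Hes1 was low in all libraries, at 1.44 and 1.38 CPM against 3.18 and 2.88 CPM. Bmp2, Bmp4 and the Notch inhibitor Dll3 rose by 1.92, 0.69 and 0.63, and Tgfbr1 by 0.31. The count that fell was 9 without anti-miR-ctl replicate 1 and 9 in the fit of all 5 groups, and the count that rose was 2 without either anti-miR-ctl library.

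Receptor, channel and guidance genes moved in both directions, to be read against 16% of all genes lower and 12.1% higher. Of 26 glutamate and GABA receptor genes 8 fell (30.8%) and 2 rose (7.69%). Gabra4, a subunit of the GABA-A receptor, went from 20.0 and 17.1 CPM to 1.89 and 2.66 CPM (log2 fold change -3.01), Grin3a had a log2 fold change of -2.27 and Gabra2 of -1.83, while Grik5 and Gria3 rose by 0.69 and 0.65. Of 35 voltage-gated and potassium channel genes 7 fell (20%) and 3 rose (8.57%), shares near those of all genes. The M-type channel subunit Kcnq3 was at -2.18, the inward rectifier Kcnj2 at -1.36, Scn1a at -1.01, Kcnq5 at 0.89 and Kcna2 at 0.77. Of 42 axon guidance genes 11 fell (26.2%) and 6 rose (14.3%). The semaphorin receptor Nrp2 went from 90.4 and 72.2 CPM to 21.8 and 20.9 CPM, and Plxna2 and Sema3a rose by 1.34 and 0.59. The decreases in these 3 groups numbered 14, 13 and 19 without anti-miR-145 replicate 2, and the decreases of receptors and of guidance genes numbered 5 and 6 without anti-miR-ctl replicate 1. The guidance genes that rose numbered 2 without anti-miR-ctl replicate 2, and the receptors and channels that rose numbered 6 and 6 without anti-miR-145 replicate 1.

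The 20 largest decreases outside the immune lists included several genes known from interferon or macrophage responses that the lists did not hold. Tnip3, an inhibitor of NF-kappaB signalling, went from 33.8 and 30.9 CPM to 1.14 and 0.795 CPM, a log2 fold change of -5.05. Samd9, Apol9a, Trim34 and Helz2, which interferon induces, had log2 fold changes of -2.86, -3.16, -2.83 and -2.68, and Ebi3, a subunit of interleukin-27, and Siglec5, a myeloid lectin, of -2.66 and -2.65. Others are known for other roles. They were the organic anion transporter Slco4a1 (-3.67), the syntrophin Sntb1 (-3.62), the betaine and GABA transporter Slc6a12 (-3.03), the nucleoside transporter Slc28a2 (-2.81), the aldo-keto reductase Akr1b8 (-2.88), the Ras exchange factor Rasgef1b (-2.94), A3galt2 (-2.54) and Prxl2b (-2.59). LOC100910669 (-2.75), LOC103692829 (-2.71) and LOC24906 (-2.60) complete the set with Spp1 and Gabra4, and LOC103692829 did not pass the test in the fit of all 5 groups.

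The interferon-stimulated genes fell almost as a whole. Of 53 tested, 50 fell and 0 rose by edgeR's quasi-likelihood test, with a median log2 fold change of -2.16, against 16% of all genes lower. The 3 that did not pass were Isg20, Ifitm2 and Ifitm1. Usp18, the protease that removes ISG15 from proteins, was at 8.54 and 9.54 CPM after anti-miR-145 and at 141 and 130 CPM after anti-miR-ctl. It fell by 3.89 on the log2 scale (standard error 0.10, adjusted p = 1.2e-05). Isg15 itself went from 116 and 113 CPM to 8.66 and 9.54 CPM, and Mx2, a dynamin-like antiviral GTPase, from 766 and 734 CPM to 71.3 and 99.3 CPM. Control libraries were high and alike for all 3 genes, and both inhibited libraries were far lower, with a wider gap between them for Mx2. Ifit1, Rsad2, Oasl and Oasl2 had log2 fold changes of -4.29, -4.26, -3.59 and -3.27. The transcription factors of the pathway changed less, with Irf7 at -2.25, Irf9 at -1.44, Stat2 at -1.12 and Irf1 at -0.51. In OLs given the control mimic, Usp18 was at 0.377 and 0.123 CPM and Isg15 at 2.29 and 2.52 CPM, below both OPC groups, a comparison across stages that was not tested. At an unadjusted p under 0.05 and by DESeq2 the number higher was also 0. The count of 50 was 49 to 52 with any library left out and 46 when a fold change of at least 1.5 was required.

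Receptors and kinases of the interferon pathway changed little. Of 8 tested, Ifngr2 fell by 0.39 on the log2 scale and 0 rose by edgeR's quasi-likelihood test, with 0 higher at an unadjusted p under 0.05 and 0 by DESeq2. Without either anti-miR-ctl library Ifngr2 did not pass, and 0 fell. Without anti-miR-145 replicate 1 the number that fell was 2, and without anti-miR-145 replicate 2 the number that rose was 1. Ifnar1 was at 117 and 121 CPM against 108 and 107 CPM, Jak2 at 62.2 and 69.1 CPM against 65.8 and 65.5 CPM, and Tyk2 at 41.3 and 42.9 CPM against 43.8 and 39.2 CPM. Jak2 and Tyk2 overlapped between the groups.

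Promoters of Rsad2 and Ifit3 are shown because both hold the core of the interferon-stimulated response element, searched as GAAANNGAA on both strands and printed in capitals, in windows from 250 bases before to 50 after the start. They lie on GRCr8 at chr6:48788071-48788370, minus strand, and chr1:241527076-241527375, plus strand.
Rsad2: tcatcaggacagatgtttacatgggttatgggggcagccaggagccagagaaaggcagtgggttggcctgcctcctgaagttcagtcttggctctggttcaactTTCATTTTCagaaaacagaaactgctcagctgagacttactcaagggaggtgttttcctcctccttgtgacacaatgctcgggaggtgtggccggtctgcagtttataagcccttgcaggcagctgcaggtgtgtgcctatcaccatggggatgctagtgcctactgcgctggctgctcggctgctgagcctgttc
Ifit3: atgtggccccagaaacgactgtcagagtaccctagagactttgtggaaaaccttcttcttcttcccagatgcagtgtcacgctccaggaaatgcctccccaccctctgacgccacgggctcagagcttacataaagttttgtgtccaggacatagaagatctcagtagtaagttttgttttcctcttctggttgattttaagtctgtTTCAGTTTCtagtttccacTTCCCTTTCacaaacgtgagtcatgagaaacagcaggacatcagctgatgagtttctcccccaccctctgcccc
The element was found in 26 of 39 promoters of interferon-stimulated genes (66.7%), in 8 of 17 of antigen presentation genes (47.1%), in 6 of 22 of inflammatory effectors (27.3%) and in 2 of 23 of chemokines and cytokines (8.70%), against 7.27% of all matched promoters. It was also in 10 of 48 promoters of cytosolic ribosomal protein genes (20.8%), a list with increases and no decreases, and in 3 of 10 of microglia markers (30%), which moved both ways. The kappa B letters GGGANTTTC were found in 6 of 22 inflammatory effectors (27.3%), in 4 of 17 antigen presentation genes (23.5%), in 3 of 23 chemokines and cytokines (13%) and in 1.22% of all. Both motifs shared bases in 1 promoter.

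Antigen presentation genes of MHC class I fell in 18 of 19 cases (94.7%, against 16% of all genes). Their median was -1.41, with 0 higher by edgeR's quasi-likelihood test. B2m, the light chain of every class I molecule, went from 1413 and 1441 CPM to 501 and 408 CPM, the immunoproteasome subunit Psmb9 had a log2 fold change of -1.82, the peptide transporter Tap1 of -1.04 and the class I transactivator Nlrc5 of -2.06. The RT1 class I genes are near-identical copies, as are some Oas1 genes, and assignment of reads between such copies is uncertain. Sensors of foreign nucleic acid fell in 12 of 22 cases (54.5%) and rose in 0 by the same test. For both lists 0 were higher at an unadjusted p under 0.05 and 0 by DESeq2. Dhx58, Ifih1 and Ddx58, the RNA helicases of the cytosol, had values of -2.39, -2.06 and -2.22, Eif2ak2, the kinase activated by double-stranded RNA, of -1.41, and Tlr7 of -1.74.

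Chemokines, cytokines and inflammatory effectors held many of the large decreases. Of 33 chemokines and cytokines 22 fell (66.7%) and 2 rose (6.06%), against 16% and 12.1% of all genes, with a median of -2.21. Il1b went from 152 and 146 CPM to 13.4 and 8.60 CPM (log2 fold change -3.75, standard error 0.20, adjusted p = 6.6e-05), Ccl3 from 132 and 129 CPM to 19.1 and 12.8 CPM, Ccl4 by a log2 fold change of -3.29 and Cxcl10 of -4.01. Csf3 had 0 counts in both anti-miR-145 libraries and 37 and 59 counts in the controls, which is at least 34.0-fold lower against a floor of 3 counts over the group, and the median of the list stayed at -2.21 with Csf3 at that bound. Il33, a nuclear alarmin, and the chemokine Cxcl14 rose by 1.19 and 0.70, and the number of members that rose was 4 without anti-miR-145 replicate 2 and 1 without anti-miR-ctl replicate 2. Of 29 inflammatory effectors 26 fell (89.7%) and 1 rose (3.45%), with a median of -1.40. Lcn2, an acute phase protein, went from 29.9 and 32.1 CPM to 0.447 and 0.204 CPM, Acod1, the enzyme of itaconate synthesis in activated macrophages, from 47.4 and 41.8 CPM to 0.869 and 0.727 CPM, and Nos2, the inducible nitric oxide synthase, had a log2 fold change of -4.88. The NF-kappaB feedback genes Tnfaip3 and Nfkbia had values of -1.76 and -1.14, and C3, the central complement protein, of -0.91. Socs3, which is induced by gp130 cytokines, rose by 1.33.

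Markers of microglia did not move as a block beside these immune genes. Of 20 tested, 9 rose and 9 fell (45% each, against 12.1% and 16% of all genes), with a median of -0.08. Their summed level was 1892 and 1502 CPM after anti-miR-145 and 2251 and 2064 CPM after anti-miR-ctl. The genes that rose included subunits of complement C1q and surface receptors, with C1qb at 221 and 181 CPM against 79.7 and 80.8 CPM, Trem2 at 51.1 and 36.9 CPM against 13.6 and 14.4 CPM, and Cx3cr1 at 12.1 and 13.3 CPM against 4.33 and 2.82 CPM. P2ry12, Ctss and Cd68 rose by 1.03, 0.72 and 0.42. Genes that fell included Itgam (-1.58), Ptprc (-1.52), Lyz2 (-1.83), the myeloid factor Spi1 (-1.44), Aif1 (-1.40) and the CSF1 receptor Csf1r (-0.41). Tmem119 and Sall1 did not pass the test. No defining microglia marker was at 0. The part of microglia in the change of the immune lists was not tested. Leaving out any library gave 7 to 9 markers higher and 8 to 10 lower, whereas the fit of all 5 groups called 3 and 4.

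Astrocyte markers split, Sox9, Gfap and Slc39a12 rising while S100b (-0.85), Slc1a3 (-1.06), Slc1a2 (-1.22), Fgfr3 (-1.28) and Aldoc (-0.29) fell, and the summed level of the 11 tested was 560 and 610.1 CPM against 824 and 793 CPM. Aqp4 and Aldh1l1 were below 1 CPM in every library. Neuronal markers summed to 656 and 807 CPM against 684 and 650.4 CPM, of which the microtubule protein Map2, also made in other cells, was the larger part. Tubb3, Nefl, Rbfox3 and Gad2 rose, with Nefl going from 3.13 and 3.51 CPM to 14.7 and 11.0 CPM. Fibroblast or mural markers summed to 10.9 and 9.60 CPM against 12.1 and 11.5 CPM, and smooth muscle myosin (Myh11), which fell by 0.51 on the log2 scale, did not pass without either anti-miR-ctl library, by DESeq2 or in the fit of all 5 groups. Without anti-miR-145 replicate 2, 2 of these markers rose. Endothelial markers summed to 2.23 and 2.18 CPM against 11.8 and 11.0 CPM, with the control sums nearly all from Flt1, a receptor for VEGF that fell by 3.56 on the log2 scale.

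**Figure D3:**
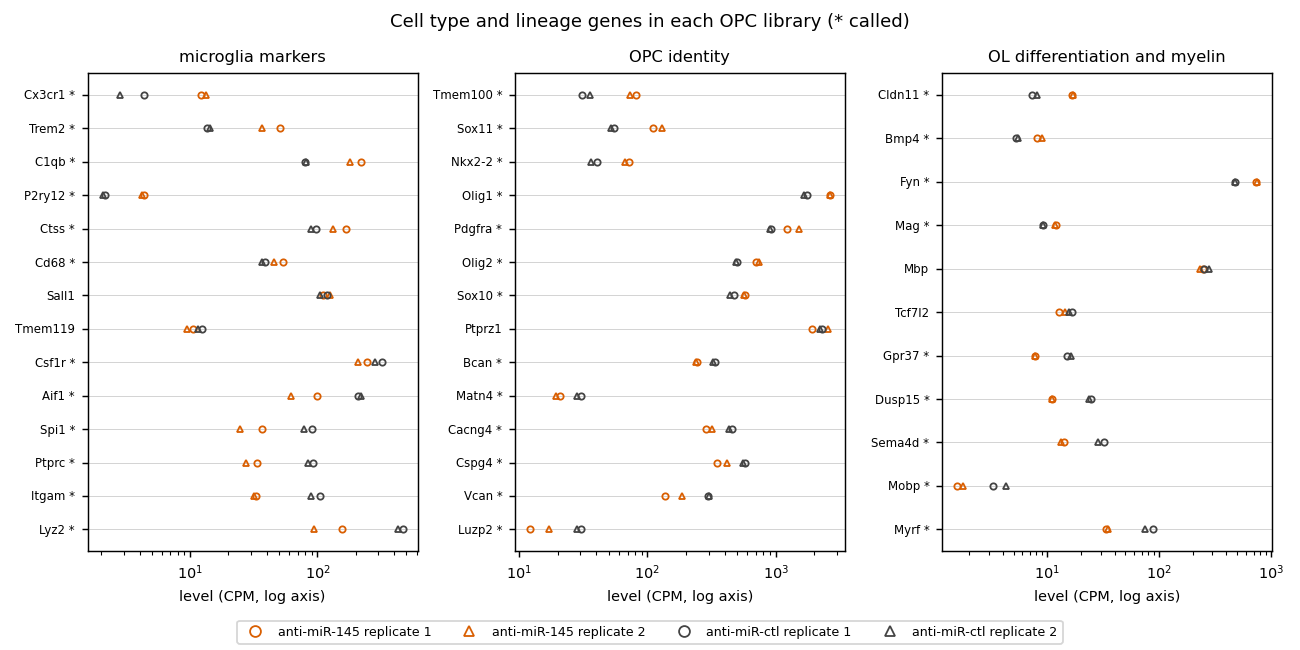
Levels in CPM (log axes) in each of the 4 OPC libraries for the microglia markers, OPC identity genes, and OL differentiation and myelin genes named in the text, ordered by log2 fold change, with called genes starred. Orange marks anti-miR-145 and grey anti-miR-ctl. Cx3cr1 and Lyz2 end the microglia panel at log2 fold changes of 1.83 and -1.83, and the groups of Ptprz1 overlap.

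Genes that define OPCs moved in both directions. Of 23 tested, 7 rose and 7 fell (30.4% each, against 12.1% and 16% of all genes), with a median of 0.00. Olig1 and Olig2, transcription factors that specify the lineage, stood at 2634 and 2623 CPM against 1738 and 1650.3 CPM, and at 697 and 735 CPM against 498 and 489 CPM. Sox10, the factor shared by the whole lineage, rose by 0.33, Nkx2-2 by 0.86 and Sox11, a factor of immature cells, by 1.19. The inhibited libraries were above the controls for each. Pdgfra rose by 0.61 and Tmem100 by 1.23. Cspg4, which encodes the NG2 proteoglycan, was at 347 and 418 CPM against 576 and 560 CPM, and the matrix genes Vcan, Bcan and Matn4 had values of -0.89, -0.44 and -0.53. Cacng4, a regulator of AMPA receptors, had a value of -0.55. Luzp2 also fell. Ptprz1, a receptor phosphatase of OPCs, was at 1916 and 2565 CPM against 2306 and 2213 CPM, overlapping between groups. The 7 that fell numbered 12 without anti-miR-145 replicate 2 and 1 in the fit of all 5 groups, which called 5 higher.

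Differentiation and myelin genes were called about as often as all genes. Of 35 tested, 4 rose (11.4%) and 5 fell (14.3%), against 12.1% and 16% of all genes, with a median of -0.17. Myrf, the factor that drives the myelin programme, was at 33.6 and 34.6 CPM after anti-miR-145 and at 87.8 and 75.2 CPM after anti-miR-ctl, and fell by 1.24 on the log2 scale (standard error 0.10, adjusted p = 0.000203). Dusp15, Sema4d, Gpr37 and Mobp had values of -1.11, -1.13, -0.99 and -1.16. Cldn11, the tight junction protein of myelin, rose from 7.32 and 8.06 CPM to 16.8 and 17.1 CPM, Fyn, a kinase of early differentiation, from 473 and 474 CPM to 735 and 750.4 CPM, and Mag and Bmp4 by 0.38 and 0.69. Mbp, the myelin basic protein gene, was at 244 and 231 CPM against 251 and 280 CPM and did not pass the test. Leaving out anti-miR-145 replicate 2 gave 9 lower, leaving out anti-miR-ctl replicate 1 gave 2 higher, and the fit of all 5 groups called 1 higher and 2 lower.

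Transcripts reported elsewhere as targets of miR-145-5p showed no common increase. Of 55 tested, 9 rose (16.4%) and 15 fell (27.3%), against 12.1% and 16% of all genes, and 31 did not pass. The median was -0.09, against 0.00 over all genes tested. Increases were led by Sox9, with Adam19 at 1.28, Serinc5 at 0.93, Klf5 at 1.19, Angpt2 at 2.21 and Myc at 0.66. Serinc5, a multipass membrane protein, was at 262 and 305 CPM against 155 and 146 CPM (standard error 0.10, adjusted p = 0.000572), with the groups well apart. Cdk4, Mylip and Egfr also rose, by 0.42, 0.49 and 1.08. Among the targets with roles in the OL lineage, Myrf fell, and Rapgef2, an exchange factor for Rap GTPases, was at 72.3 and 88.6 CPM against 117 and 107 CPM, a log2 fold change of -0.46 (standard error 0.11, adjusted p = 0.0195) that did not pass without anti-miR-ctl replicate 1. Acvr1b was at 37.0 and 40.3 CPM against 36.4 and 37.1 CPM, Tcf7l2 at 12.6 and 14.4 CPM against 16.5 and 15.5 CPM, and Sox2 at 272 and 273 CPM against 255 and 244 CPM, none passing the test, although Tcf7l2 passed without anti-miR-145 replicate 2. The factor Klf4 and the Notch ligand Jag1 (-1.73 and -0.94) and the cytoskeletal genes Swap70 and Myo6 (-0.64 and -0.66) were among those that fell. Without anti-miR-145 replicate 2 the targets that fell numbered 26, without anti-miR-ctl replicate 1 they numbered 6, and in the fit of all 5 groups 7.

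Few genes of the small RNA machinery were called, although their log2 fold changes ran from -0.87 to 0.61. Of 16 genes tested, Tarbp2, a partner of Dicer, rose by 0.61 and 0 fell by edgeR's quasi-likelihood test, with 0 lower at an unadjusted p under 0.05 and 0 by DESeq2. Dicer1 was at 63.4 and 75.9 CPM against 79.8 and 76.7 CPM, and Ago2, the slicing Argonaute, at 26.0 and 36.3 CPM against 29.9 and 28.0 CPM, with overlapping groups for Ago2. Without anti-miR-145 replicate 1 the number that rose was 5, and without anti-miR-145 replicate 2 the number that fell was 5.

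Genes of cholesterol synthesis rose by small amounts. Of 28 tested, 19 rose (67.9%) and 1 fell (3.57%), against 12.1% and 16% of all genes, with a median of 0.41. Msmo1 was at 462 and 428 CPM against 274 and 277 CPM (log2 fold change 0.71, standard error 0.09, adjusted p = 0.00127), Dhcr7 and Mvk rose by 0.61 and 0.72, and the regulator Srebf2 by 0.37. Abcg1, which exports sterols, had a value of -0.61. The count was lower when either anti-miR-ctl library was left out, for a reason that was not tested. It was 7 in the fit of all 5 groups and 0 when a fold of at least 1.5 was required. The sterol regulatory letters TCACNCCAC were in 0 of 19 promoters of these genes, and in 1.13% of all matched promoters. At so low a share, 0 of 19 does not tell these genes apart from others. CCAAT was in 16 of 19 (84.2%), against 37% of all matched promoters and 60.6% of those of cell cycle genes.

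Ribosomal protein genes shifted by a similar size. Of 57 cytosolic ribosomal protein genes 27 rose and 0 fell by edgeR's quasi-likelihood test, with a median of 0.39, all 57 having a value above 0. At an unadjusted p under 0.05 and by DESeq2 the number lower was also 0. Their summed level differed more between the anti-miR-145 libraries, at 44567 and 37216 CPM, than between the controls, at 30779 and 32447 CPM. The count that rose was 46 by DESeq2, 57 without anti-miR-145 replicate 2, 1 without anti-miR-ctl replicate 1 and 3 without anti-miR-ctl replicate 2. Mitochondrial ribosomal protein genes rose in 10 of 71 cases and respiratory chain and ATP synthase genes in 5 of 66, shares of 14.1% and 7.58% that are near or below the 12.1% of all genes. These counts became 45 and 49 without anti-miR-145 replicate 2, 1 and 0 without anti-miR-ctl replicate 1, and 2 and 0 without anti-miR-ctl replicate 2.

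Stress pathways were mixed, to be read against 16% of all genes lower and 12.1% higher. Among oxidative stress and iron genes, the mitochondrial superoxide dismutase Sod2 went from 407 and 395 CPM to 93.9 and 78.8 CPM. Hmox1, which degrades haem, went from 434 and 386 CPM to 148 and 98.9 CPM. Of 19 oxidative stress and iron genes 8 fell (42.1%) and 2 rose (10.5%). Without anti-miR-ctl replicate 1 the number that rose was 1. Of 28 amino acid and unfolded protein response genes 6 rose (21.4%) and 5 fell (17.9%). The cystine transporter Slc7a11 was at -1.86, Ddit3 at -0.99, Ddit4 at 0.50 and Shmt2 at 0.59. Of 24 p53 targets and apoptosis genes 6 rose (25%) and 4 fell (16.7%). In these last 2 groups the share that fell was near that of all genes. Gadd45g rose from 73.1 and 78.7 CPM to 261 and 192 CPM, and Bcl2l11, which encodes the death protein BIM, from 13.6 and 13.2 CPM to 29.8 and 31.4 CPM, while Bax rose by 0.45 and Gadd45b had a value of -0.85. The unfolded protein response genes that fell numbered 9 without anti-miR-145 replicate 1. The increases in the last 2 groups numbered 10 and 11 without anti-miR-145 replicate 2, 2 and 2 without anti-miR-ctl replicate 1, and 3 and 2 without anti-miR-ctl replicate 2.

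**Figure D4:**
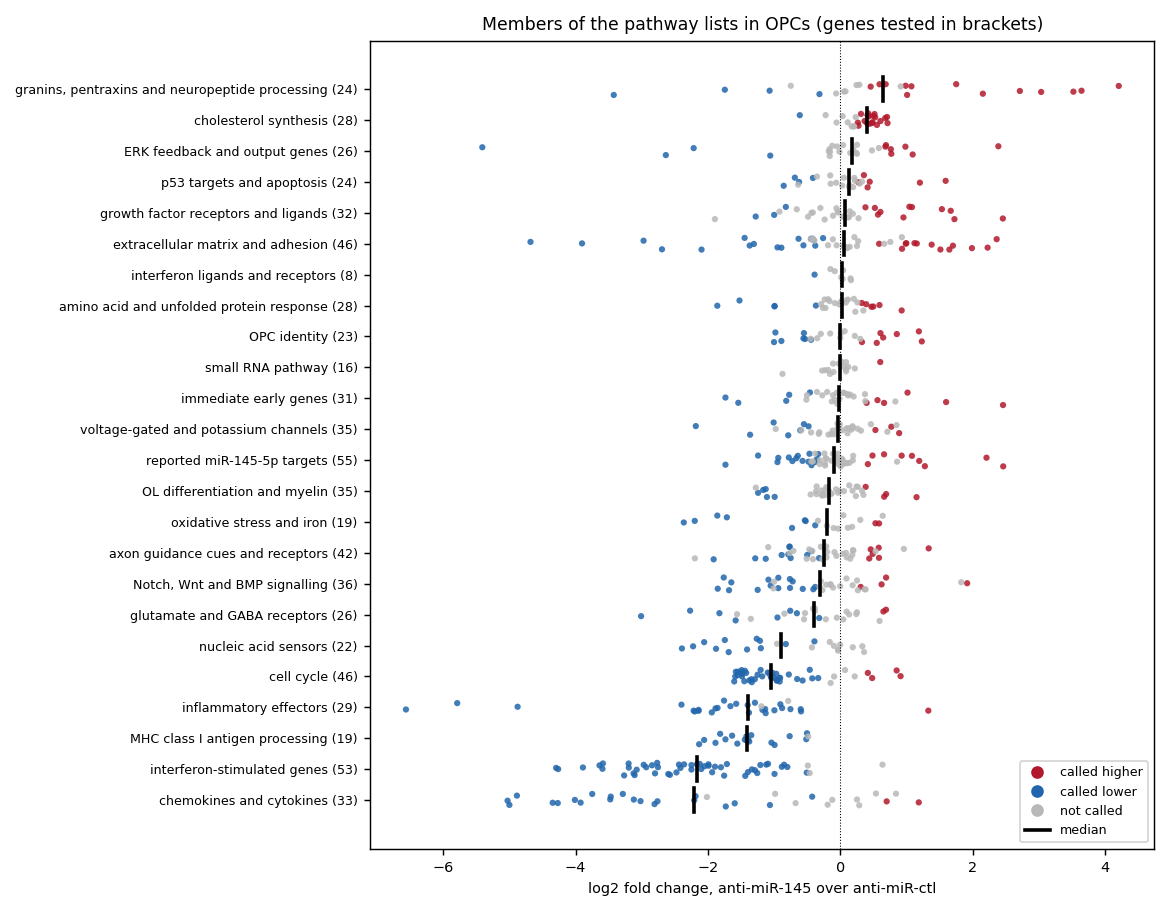
Log2 fold change of anti-miR-145 over anti-miR-ctl for each member tested of the 24 pathway lists, ordered by their medians (black bars), coloured by call, and without Csf3, which was at 0 counts in both anti-miR-145 libraries. Medians run from 0.64 for granins, pentraxins and neuropeptide processing to -2.21 for chemokines and cytokines.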

How the data were processed

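Per the labels and the study's methods, the authors quantified reads with Salmon 0.12.0 on a rat transcriptome of the Rnor6.0 build and deposited estimated counts per gene, which need not be whole and were rounded here. Symbols came from the authors' table (14561 gene IDs) and RefSeq (187), and 266 symbols on more than 1 gene ID were left out of the lists. Genes reaching 5 counts in 2 or more OPC libraries were tested with edgeR 4.0.16 (R 4.3.3; TMM factors, quasi-likelihood F test, Benjamini-Hochberg adjustment), and standard errors were taken as the absolute log2 fold change over the square root of F. CPM are not corrected for gene length, so levels of different genes are not comparable. DESeq2 1.42.0, other scalings, filters, sample sets, a replicate block and left-out libraries were alternatives. The procedure was tested on simulated data. Members, gene lists and tests were chosen with earlier results of these data known. The largest changes named are, among called genes with a symbol on 1 gene ID, groups that do not overlap and at least 10 CPM on average, the 20 that rose most, the 20 outside the 6 immune lists that fell most and the 10 within them that fell most. From each list, members were named for small p, for a direction against the majority or for a defining role. Some genes are not reported here.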

Additional observations from a re-analysis of the deposited data

How the results depend on the processing

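None of the 4348 called genes changed sign under the alternatives run. The groups of every called gene did not overlap, so these alternatives had little room to reverse a sign. DESeq2 called 4103 genes, DESeq2 size factors within edgeR 4317 and upper quartile factors 4464. A single fit of all 5 groups called 2657 genes (1148 higher, 1509 lower), and a test against a fold change of at least 1.5 called 1343 (314 higher, 1029 lower). The causes of these differences were not tested, beyond the stricter threshold of the latter. With 1 library left out, 2424 to 7130 genes were called, 749 to 3482 of them higher and 1659 to 3648 lower, with the lone library assumed to vary like the other group. Under the fold threshold the granin list kept 7 increases, and the cholesterol and ribosomal lists 0 each. The fit of all 5 groups called 7 cholesterol genes higher, and DESeq2 called 46 ribosomal genes higher. With 1 library left out these 2 lists had 6 to 21 and 1 to 57 increases. For the 50 genes of largest change named by rule and 6 targets of miR-145-5p, 723 values kept their direction and side of the threshold, 4 lost the call, 1 gained it and 0 reversed. The libraries share replicate numbers only, and deviations of same-numbered libraries correlated at -0.152. With a replicate block 3963 genes were called. A crossed pairing, chosen after seeing the data, gave 5536. With 2 libraries per group, small changes depend on which libraries are used, and genes of few counts are the least precise.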
